A study of Mus musculus with 2 samples.

Results

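The miR-30 family of the mouse consists of 6 microRNA hairpins, Mir30a, Mir30b, Mir30c-1, Mir30c-2, Mir30d and Mir30e, which lie in pairs at 3 genomic loci. They were chosen by name, though with earlier results of these data known, and all 6 were found among the 1973 genes of the count tables. The tables come from small RNA sequencing of embryonic hindbrain, the tissue that forms the medulla, pons and cerebellum. Tissue was taken from healthy embryos of the B6NCrl strain at embryonic day 16.5, with males and females pooled and no treatment or mutation named. There is 1 group of 2 biological replicates. Replicate 2 was pooled from 37 embryos, and for replicate 1 the labels say only that embryos were pooled. With 1 group, the questions the design allows are how abundant each hairpin was, how the hairpins and loci compared with each other, and how well the 2 libraries matched.

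A microRNA is cut from a hairpin transcript as a short duplex with a 5p and a 3p arm, and the arm that is kept guides Argonaute to messenger RNAs that pair with its seed, bases 2 to 8. Members of the miR-30 family share the seed of their 5p arm and so are predicted to recognise overlapping sets of targets. The family is made in many tissues, among them brain, kidney, heart and cartilage, and the Mir30a hairpin is well known as a backbone for expressing artificial short hairpin RNAs. Mir30e and Mir30c-1 are carried by Nfyc, which encodes a subunit of the CCAAT-binding factor NF-Y.

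The sequences show which reads can be told apart. RefSeq entries (GRCm38.p6, the assembly of mm10) were matched for 4 of the 6 hairpins. The 5p arms are shown first, because they carry the family seed, which is in capitals. Mir384, a brain-enriched microRNA gene outside the family by name, was the only other gene of the RefSeq table with this 5p seed, and it is shown for comparison.
miR-30a-5p: uGUAAACAuccucgacuggaag
miR-30e-5p: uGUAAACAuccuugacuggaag
miR-30c-5p: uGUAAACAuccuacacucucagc
miR-384-5p: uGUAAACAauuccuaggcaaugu

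The 5p arms of Mir30a and Mir30e differ by a single substitution, C13U, with positions counted from 1 at the 5′ end of miR-30a-5p. They share bases 1 to 12 with miR-30c-5p, while miR-384-5p shares only bases 1 to 8 with miR-30a-5p. The 3p arms, also with bases 2 to 8 in capitals, fall into 2 seed groups.
miR-30a-3p: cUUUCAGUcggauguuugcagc
miR-30e-3p: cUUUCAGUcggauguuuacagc
miR-30c-1-3p: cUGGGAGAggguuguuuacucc
miR-30c-2-3p: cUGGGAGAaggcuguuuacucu

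The 3p arms of Mir30a and Mir30e differ by G18A. Those of Mir30c-1 and Mir30c-2 differ by G9A, U12C and C22U. Only 1 further gene of the RefSeq table had either 3p seed, Mir6958, whose 5p arm matches the seed of the 3p arms of Mir30c-1 and Mir30c-2 and which held 30 and 24 counts in replicates 1 and 2.

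Among the 4 hairpins with an entry, Mir30c-1 and Mir30c-2 shared the longest identical stretch. Both make miR-30c-5p, and the stretch is longer than the mature arm. It is in capitals in the full hairpins below, which are shown because a read that lies wholly inside it fits both loci.
Mir30c-1: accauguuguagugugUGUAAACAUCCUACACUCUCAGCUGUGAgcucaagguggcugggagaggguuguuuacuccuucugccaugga
Mir30c-2: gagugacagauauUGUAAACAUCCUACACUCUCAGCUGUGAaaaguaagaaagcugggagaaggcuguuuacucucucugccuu

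The identical stretch is 28 bases long, against 23 for the mature arm and a stated insert size below 30 bases for the libraries. Across the whole RefSeq table no hairpin other than these 2 held it. Reads that map to several places are summed in the tables and given to no gene, so miR-30c-5p reads of this kind are not in the counts of Mir30c-1 or Mir30c-2. By contrast, the longest stretch that Mir30a or Mir30e shared with any other hairpin of the table was 18 bases, with each other, and each of their mature arms was found in 1 hairpin only.

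The hairpins lie on chromosomes 1, 4 and 15 (mm10). Mir30e (ENSMUSG00000065409.1) spans 120772606 to 120772697 and Mir30c-1 (ENSMUSG00000065490.1) spans 120769534 to 120769622 on the minus strand of chromosome 4, both in introns of Nfyc and on its strand, 2983 bp apart. Mir30d (ENSMUSG00000065437.1; 68341208 to 68341289) and Mir30b (ENSMUSG00000065476.2; 68337415 to 68337510) lie on the minus strand of chromosome 15, 3697 bp apart, and their nearest protein-coding gene is Zfat. Mir30d overlaps an exon of the long noncoding RNA gene Gm20732, and Mir30b overlaps no other annotated gene. Mir30a (ENSMUSG00000065405.2; 23272269 to 23272339) and Mir30c-2 (ENSMUSG00000065567.1; 23291701 to 23291784) lie on the plus strand of chromosome 1, 19361 bp apart, and their nearest protein-coding gene is Ogfrl1. Mir30c-2 overlaps an exon of the long noncoding RNA gene Gm27028, and Mir30a overlaps no other annotated gene. Each of the 3 loci thus holds 1 hairpin with a miR-30a, miR-30d or miR-30e name and 1 with a miR-30b or miR-30c name.

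Replicate 1 held 5097205 and replicate 2 held 4460836 counts on the sense strand of microRNA genes, the counts used here. Levels are in CPM, counts per 1000000 of this total. Multimapping reads made up 34.5% and 35.1% of all reads and are outside it. Among the marker lists, the Hox-cluster genes Mir10a and Mir10b summed to 100993 and 85868 CPM in replicates 1 and 2. Of 11 listed neural genes, 10 had an entry and 7 were detected (at least 10 counts in both libraries), with 13557 and 12175 CPM. Mir137 led this list, with a mean of 8178 CPM. Markers of other cell types were also present. Endothelial and mural markers summed to 34724 and 36467 CPM, multiciliated and choroid plexus markers to 9297 and 10120 CPM, erythroid markers to 216 and 206 CPM and the hepatocyte marker Mir122 to 41.0 and 41.9 CPM. Of 4 listed skeletal muscle genes, 3 had an entry and 1, Mir206, was detected. Their sum was higher in replicate 1, at 375 against 24.9 CPM, with Mir1a-1 at 0. Mir206 held 1884 counts in replicate 1 and 108 in replicate 2. Reads that fit several hairpins are left out of all these marker sums, so the sums do not rank the cell types. The part of these cell types in the miR-30 levels was not tested.

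The family as a whole was abundant. It held 181588 counts in replicate 1 and 137932 in replicate 2, or 3.56% and 3.09% of the sense counts, a mean of 3.33% ± 0.333 (SD, n = 2). The exact binomial 95% intervals were 3.55% to 3.58% and 3.08% to 3.11%. These intervals did not overlap, and replicate 1 was the higher. With multimapping reads added to the total, the mean share was 1.90%. When genes were summed by the number in their symbol, Mir30 ranked 7 in each library. This ranking leaves out reads that fit several hairpins, and the number in a symbol need not match a family. In bulk tissue, fewer cells that make a microRNA and less of it per cell cannot be told apart, so these levels are averages over all hindbrain cells.

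Almost all of the assigned counts came from 3 hairpins. Mir30e, the Nfyc hairpin with the C13U arm, was the most abundant, with 93550 counts (18353 CPM) in replicate 1 and 69102 counts (15491 CPM) in replicate 2, a mean of 16922 ± 2024 CPM (SD, n = 2). It ranked 13 among all genes in both libraries. Mir30a had 47483 counts (9315 CPM) and 36465 counts (8174 CPM), a mean of 8745 ± 807 CPM (SD, n = 2) and a rank of 20. Mir30d followed with 39296 counts (7709 CPM) and 31236 counts (7002 CPM), a mean of 7356 ± 499.96 CPM (SD, n = 2) and a rank of 26. All 3 were higher in replicate 1, and their values did not overlap: the lower value of Mir30a, in replicate 2, was above the higher value of Mir30d, in replicate 1. Together the 3 hairpins held 99.3% of the counts assigned to the family in replicate 1 and 99.2% in replicate 2. Reads that fit both Mir30c hairpins are in neither figure, so the true share of these 3 hairpins is not known.

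The other 3 hairpins were detected at low levels. Mir30b had 730 counts (143 CPM) in replicate 1 and 701 counts (157 CPM) in replicate 2, a mean of 150 ± 9.85 CPM (SD, n = 2), and it was the family member with the clearest excess in replicate 2. Mir30c-1 had 322 counts (63.2 CPM) and 253 counts (56.7 CPM), a mean of 59.9 ± 4.57 CPM (SD, n = 2). Mir30c-2 had 207 counts (40.6 CPM) and 175 counts (39.2 CPM), a mean of 39.9 ± 0.976 CPM (SD, n = 2). The counting intervals of the 2 libraries overlapped for each of these hairpins, for example 35.3 to 46.5 CPM and 33.6 to 45.5 CPM for Mir30c-2. Since reads of the shared 28 bases are left out, the Mir30c-1 and Mir30c-2 values count only reads that could be placed at 1 locus, and they do not measure the amount of miR-30c-5p. Mature arms are of nearly constant length, 22 or 23 bases for those above, so levels were compared without scaling to hairpin length.

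**Figure D1:**
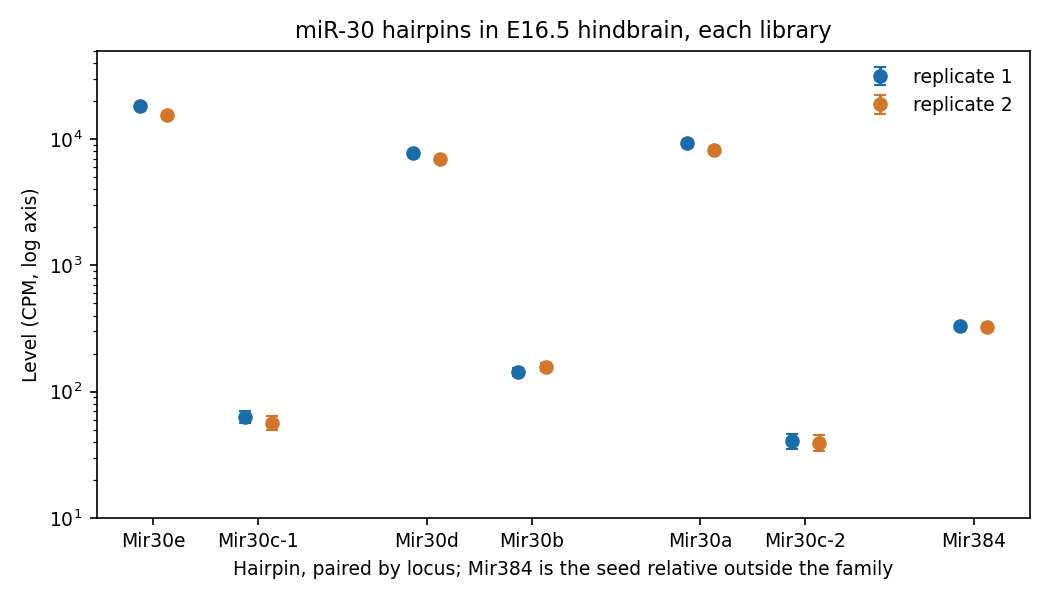
Level of each miR-30 hairpin and of Mir384 in the 2 libraries (vertical log axis, CPM), hairpins placed beside their locus partner, with exact binomial 95% intervals as bars where they exceed the symbol. Mir30e, Mir30a and Mir30d lie between 7002 and 18353 CPM and Mir30b, Mir30c-1 and Mir30c-2 between 39.2 and 157 CPM, with Mir384 between the 2 sets.

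The order of levels was Mir30e, Mir30a, Mir30d, Mir30b, Mir30c-1 and Mir30c-2 in both libraries. A pair was called different where the log2 ratios of both libraries pointed one way and their mean exceeded 2 SD. All 15 pairs of hairpins passed, against 91.9% of all 73920 pairs of detected genes, so the pass itself says little about the family. With 2 libraries, the smallest p of an exact sign-flip test is 0.5. Among neighbours in the order, Mir30e exceeded Mir30a by a log2 ratio of 0.95 ± 0.04, Mir30a exceeded Mir30d by 0.25 ± 0.04, Mir30d exceeded Mir30b by 5.61 ± 0.19, Mir30b exceeded Mir30c-1 by 1.33 ± 0.20 and Mir30c-1 exceeded Mir30c-2 by 0.58 ± 0.07 (SD, n = 2). The step from Mir30a to Mir30d was the smallest, 1.19-fold, and the step from Mir30d to Mir30b was the largest of these 5, 49.0-fold.

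The Nfyc locus held about as many assigned counts as the other loci combined. Mir30e and Mir30c-1 together held 51.7% of the family counts in replicate 1 and 50.3% in replicate 2, a mean of 51.0% ± 0.999 (SD, n = 2). The Mir30a and Mir30c-2 locus held 26.3% and 26.6%, a mean of 26.4% ± 0.213, and the Mir30d and Mir30b locus held 22.0% and 23.2%, a mean of 22.6% ± 0.786 (SD, n = 2). The shares thus kept the same order in both libraries. They leave out the reads that fit both Mir30c hairpins, which belong to the Nfyc and chromosome 1 loci in unknown proportion and could change the shares. The Nfyc locus exceeded the chromosome 15 locus by a log2 ratio of 1.17 ± 0.08 and the chromosome 1 locus by 0.95 ± 0.04, and the chromosome 15 locus was below the chromosome 1 locus, at -0.23 ± 0.04 (SD, n = 2). All 3 comparisons passed the limit of 2 SD.

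**Figure D2:**
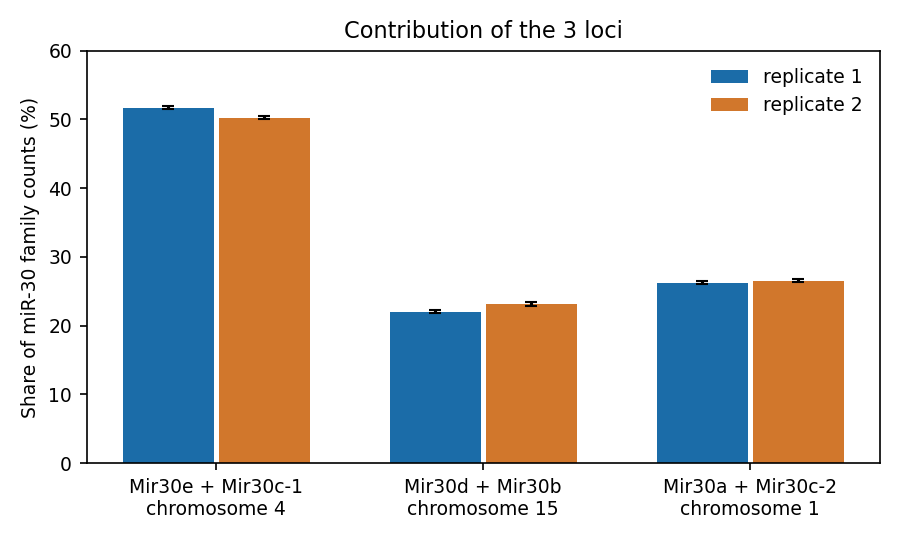
Share of the miR-30 family counts (percent, vertical axis from 0) that each of the 3 loci held in replicates 1 and 2, with exact binomial 95% intervals. The Nfyc locus on chromosome 4 stands at 51.7% and 50.3%, and the other loci lie between 22.0% and 26.6%.

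Within every locus the 2 hairpins were very unequal. Mir30e exceeded its Nfyc partner Mir30c-1 by a log2 ratio of 8.18 in replicate 1 and 8.09 in replicate 2, a mean of 8.14 ± 0.06 (SD, n = 2), or 282-fold. Mir30a exceeded Mir30c-2 by 7.84 and 7.70, a mean of 7.77 ± 0.10, or 219-fold. Mir30d exceeded Mir30b by 5.75 and 5.48, a mean of 5.61 ± 0.19, or 49.0-fold. The minor hairpin supplied 0.354% of the counts at the Nfyc locus, 0.456% at the chromosome 1 locus and 2.01% at the chromosome 15 locus. The chromosome 15 imbalance was smaller than that of the Nfyc locus by 2.52 ± 0.13 and than that of the chromosome 1 locus by 2.16 ± 0.09, and the last 2 differed from each other by 0.37 ± 0.04 (log2, SD, n = 2). These differences also passed the limit. The 2 larger imbalances are those of the Mir30c hairpins, whose shared 28 bases give reads that are left out, and the part of those reads in the ratios was not tested.

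The miR-30 imbalances were set beside those of other clustered microRNAs. Of 113 pairs of detected hairpins next to each other on 1 strand within 10000 bp, 92.9% passed the limit of 2 SD, and their median log2 difference was 2.67. Both miR-30 pairs in that set passed, Mir30e with Mir30c-1 and Mir30d with Mir30b, and 7 and 25 pairs of the set had a larger difference than they did. The pair of Mir30a and Mir30c-2 is too far apart for it. Within 50000 bp there were 127 pairs with a median of 2.48, and 8, 10 and 28 of them differed by more than the Nfyc, chromosome 1 and chromosome 15 pairs of the family. Pairs within a cluster are not independent of each other.

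**Figure D3:**
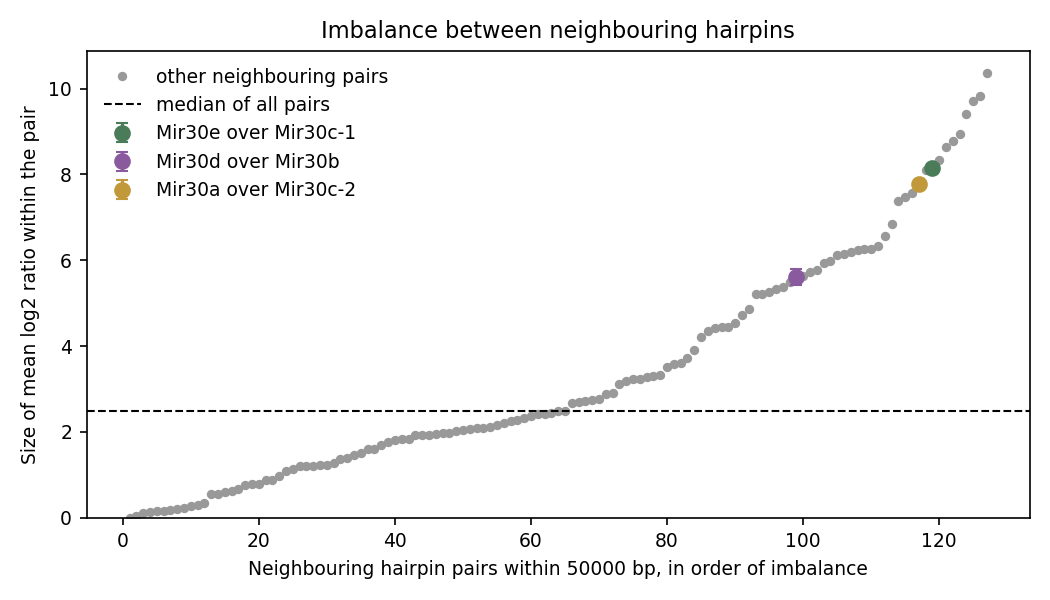
Size of the mean log2 ratio (vertical axis) for 127 neighbouring hairpin pairs within 50000 bp, in increasing order, with the 3 miR-30 loci coloured (bars, SD of 2 libraries) and the median of 2.48 dashed. The Nfyc and chromosome 1 pairs, at 8.14 and 7.77, lie near the upper end, and the chromosome 15 pair lies at 5.61.

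The seed of the family is also carried by the 5p arm of Mir384, the only such gene outside the family among those with a RefSeq entry. Counts are per hairpin and pool both arms, so they do not measure the amount of the seed. Mir384 (ENSMUSG00000065499.1; minus strand of chromosome X, 105344282 to 105344369) had 1671 counts (328 CPM) in replicate 1 and 1437 counts (322 CPM) in replicate 2, a mean of 325 ± 4.02 CPM (SD, n = 2). It supplied 0.912% and 1.03% of the counts on the 7 hairpins. Mir384 lay above the minor members, with log2 ratios to it of -1.12 ± 0.11 for Mir30b, -2.44 ± 0.09 for Mir30c-1 and -3.03 ± 0.02 for Mir30c-2. Reads that fit both Mir30c hairpins are left out of their counts, whereas miR-384-5p was found in 1 hairpin only. The share of Mir384 and its ratios to the Mir30c hairpins thus do not compare it with miR-30c-5p. Mir384 lay below the major members, which exceeded it by 5.70 ± 0.16 for Mir30e, 4.75 ± 0.12 for Mir30a and 4.50 ± 0.08 for Mir30d (SD, n = 2). Mir30f is annotated on the strand opposite Mir30e and spans all of that hairpin. Its arm, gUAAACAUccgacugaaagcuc (bases 2 to 8 in capitals), repeats bases 2 to 11 of miR-30a-5p from its own base 1. Mir30f had no entry of its own here, and the strand opposite Mir30e held 1 count in replicate 1 and 0 in replicate 2. The other 5 hairpins had 0 opposite-strand counts in both libraries, a result that leaves room for at most 0.589 CPM (replicate 1) and 0.673 CPM (replicate 2).

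The other families set beside miR-30 differed from it in assigned counts. Reads that fit several hairpins are left out of every family sum. In let-7, for example, Mirlet7a-1, Mirlet7c-1, Mirlet7c-2 and Mirlet7f-2 each have an arm that another hairpin also holds. For miR-181 and miR-26 no such list is given here, and their sums have the same limit. The shares and ratios below therefore hold for assigned counts only. The miR-181 family also has 6 hairpins in 3 clusters, and it held 2.22% ± 0.0119 of the sense counts. The miR-30 family exceeded it by a log2 ratio of 0.58 ± 0.14. The miR-26 family held 1.499% ± 0.161 and was exceeded by 1.15 ± 0.01, and the let-7 family, with 10 of 12 listed genes counted, held 14.2% ± 0.407, which put miR-30 at -2.10 ± 0.19 relative to it (SD, n = 2). All 3 ratios passed the limit of 2 SD. Of the assigned counts, Mir30e made up 50.8% of its family, close to 56.0% for Mir181c and 50.1% for Mirlet7g in theirs. Mir26b made up 99.8% of those of miR-26, and the part of left-out reads in these shares was not tested. The single genes of these families were picked after their values were seen. In the miR-181 clusters, Mir181a-1 exceeded Mir181b-1 by 9.40 ± 0.45, Mir181b-2 exceeded Mir181a-2 by 1.93 ± 0.29 and Mir181c exceeded Mir181d by 1.40 ± 0.29 (log2, SD, n = 2). In assigned counts, the lowest imbalance of a miR-30 locus was thus above those of 2 miR-181 clusters. Reads that fit several hairpins are left out of these ratios too, and their part in them was not tested.

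The libraries differed slightly in the abundant members. After TMM scaling, which corrects library totals for overall composition, the log2 ratio of replicate 2 over replicate 1 was -0.18 for Mir30e (exact binomial 95% interval -0.19 to -0.17), -0.12 for Mir30a (-0.14 to -0.10) and -0.07 for Mir30d (-0.10 to -0.05). Mir30b went the other way, at 0.20 (0.05 to 0.35). By an exact binomial test with Benjamini-Hochberg adjustment over 401 genes, these 4 passed at 0.05, 3 higher in replicate 1 and 1 in replicate 2, with adjusted p = 4.79e-135 for Mir30e, 7.93e-34 for Mir30a, 8.76e-11 for Mir30d and 0.0216 for Mir30b. Mir30c-1 at -0.09 (-0.33 to 0.15) and Mir30c-2 at 0.02 (-0.28 to 0.31) did not pass, and their intervals were far wider.

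Those 4 of 6 calls stand beside 46.4% of all genes called, 24.4% higher in replicate 1 and 21.9% higher in replicate 2. The test allows for counting noise only, and it compares these 2 libraries, not conditions. Of the 26 genes at least as abundant as Mir30d, 24 were called, so nearly every abundant gene passed. The sizes were ordinary: the median absolute log2 ratio over all tested genes was 0.18, the same as for Mir30e to 2 decimals, and 208 of the 401 genes, Mir30e included, differed by at least as much as Mir30e. When variation between pools was allowed for, with the exact test of edgeR and a biological coefficient of variation set to 0.1, 1.75% of genes and 0 of the 6 hairpins were called, and 0 of the 6 had an unadjusted p under 0.05. With plain library totals, 131 genes were higher in replicate 1 and 62 in replicate 2, against 98 and 88 after TMM scaling, and Mir30b no longer passed.

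**Figure D4:**
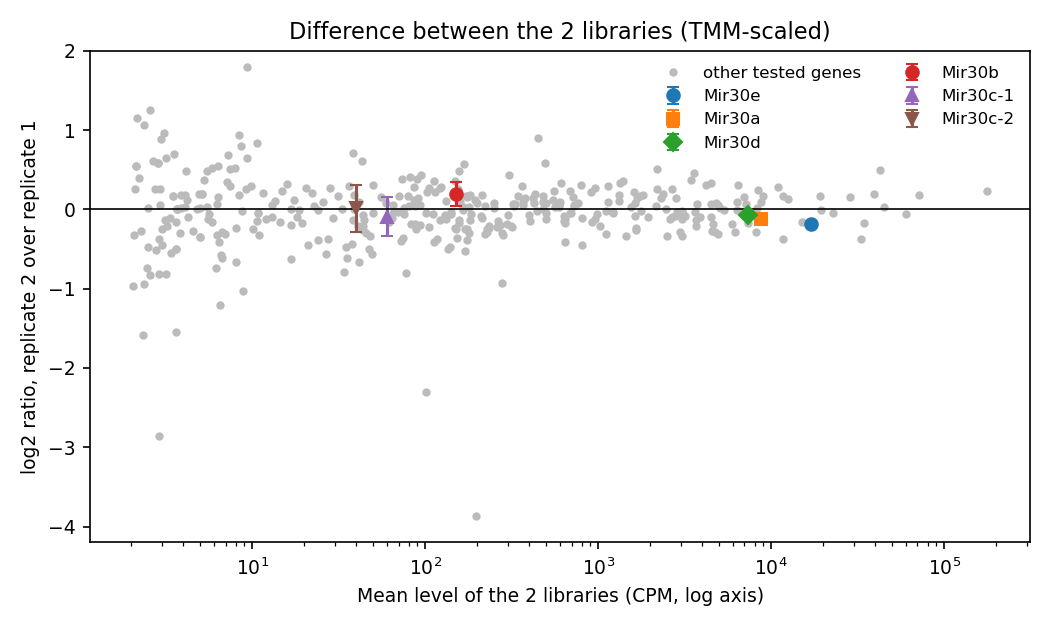
Log2 ratio of replicate 2 over replicate 1 after TMM scaling (vertical axis) against mean level (horizontal log axis, CPM) for 401 tested genes, with the 6 miR-30 hairpins marked and their exact binomial 95% intervals as bars. Mir30e, Mir30a and Mir30d lie just below 0 and Mir30b just above it, all well inside the spread of the other genes.

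The genes nearest to each hairpin in level over both libraries, by Euclidean distance of log2(CPM + 1) among detected genes outside the family, were Mir26b for Mir30e (distance 0.25), Mir23b for Mir30a (0.14), Mir322 for Mir30d (0.07), Mir410 for Mir30b (0.06), Mir1981 for Mir30c-1 (0.07) and Mir19a for Mir30c-2 (0.04). This likeness rests on 2 libraries and on level alone. Mir26b, the nearest to Mir30e, had 16099 CPM in replicate 1 and 13818 CPM in replicate 2, the values by which it was chosen.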

How the data were processed

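Each of the 2 libraries came with 1 table of raw counts, deposited after alignment to mm10 and counting with GENCODE M4, per the text accompanying the files; for aligner and counter, names are not given in the sources. Of the 3 count columns (either strand, and each strand alone), the one with the sense reads was used. The 4 summary lines that name no gene, with multimapping reads at 34.5% and 35.1%, unmapped reads at 15.5% and 15.2% and reads outside listed genes at 2.60% and 2.78% of all reads, stayed out of the totals. Of 1973 gene identifiers, 1894 matched GENCODE M21 (the same assembly), which gave names, coordinates and neighbours; the other 79 held 8 counts.

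The members, lists and tests were chosen with earlier results of these data known. All 6 hairpins were named, with seed relatives and the gene nearest to each hairpin in level (Euclidean distance); single genes of other families and clusters were named outside this rule, after their values were seen. Levels are CPM with the SD over 2 libraries. Clopper-Pearson intervals at 95% and the upper limit of 3 counts for a gene at 0 cover counting error only. The library comparison took genes whose counts summed to 20 or more, TMM factors from edgeR, and an exact two-sided binomial test. The test was checked on counts simulated with counting noise only, so the check does not cover variation between pools. Shared stretches were searched by exact match among the RefSeq hairpins. Alternatives were unstranded counts, other totals and scalings (DESeq2 size factors among them), each library alone, omission of Mir30c-1 and Mir30c-2, a pseudocount of 1 CPM, other limits and edgeR's exact test. Normalization ran in R 4.3.3 with DESeq2 1.42.0 and edgeR 4.0.16, tests in scipy 1.17.1 under Python 3.11.15 (pandas 2.3.3, numpy 2.4.6), and figures in matplotlib 3.10.9.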

Additional observations from a re-analysis of the deposited data

How the results depend on the processing

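The 9 log2 ratios within and between loci and against other families kept their sign under all 39 alternative values. Where 2 libraries allowed the rule to be applied, they kept their side of the limit. Much of this was fixed in advance. The rule already required both libraries to agree in sign, so values from 1 library alone could not reverse. Unstranded counts add 1 count to the miR-30 hairpins, so the ratios within and between loci could hardly change with them. More room was left by unstranded counts of the other families, 1 CPM added before the log and omission of Mir30c-1 and Mir30c-2. The 15 hairpin pairs past 2 SD stayed at 15 with non-overlapping counting intervals. They also stayed at 15 with a limit of 1 SD, which is looser and could not lower the number. The same held for unstranded counts, which differ by that 1 count only. With 1 library alone the rule cannot be applied. Levels depend on the total: the family share was 4.04% without the most abundant gene in the total and 1.90% with multimapping reads in it, and every hairpin moved with it by the same factors in each library. In the library comparison, edgeR's exact test at the assumed coefficient of 0.1 called 7 genes and 0 hairpins, against 186 and 4. With 1 library alone this comparison cannot be made. With plain totals Mir30b missed the threshold (0.13, exact binomial test, adjusted p = 0.151), and Mir30c-2, not called under either scaling, changed sign to -0.050. No paired analysis was possible because there is 1 group. The counts of Mir30c-1 and Mir30c-2 limit what can be said of miR-30c, and 2 pools limit every SD.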

Other observations

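The reads that hairpins share were followed up across the table, after the miR-30 values had been seen. Of 385 detected genes, 326 had a RefSeq entry, and 43 of these had a mature arm that another hairpin also holds, as Mir30c-1 and Mir30c-2 do. Outside the miR-30 family, 18 pairs of neighbouring hairpins within 50000 bp had 1 such hairpin, and it was the lower of the pair in 16. The median size of the log2 ratio in those 18 pairs was 4.47, against 2.24 in the 76 pairs with no such hairpin. The exceptions were Mir129-2, above Mir670 by 2.73 ± 0.60, and Mir24-2, above Mir27a by 0.16 ± 0.16 (log2, SD, n = 2). Mir194-2, counted as the lower one, had a log2 ratio of -0.22 ± 0.31 to Mir192. That pair and the pair of Mir24-2 and Mir27a did not pass the limit of 2 SD. Pairs of a cluster overlap, and no test was made. The part of shared reads in these imbalances was not tested. Across single genes no such gap was seen, with a median of 166 CPM for the 43 genes and 155 CPM for the other genes with an entry. For 4 of the 18 pairs the imbalance was at least that of Mir30e over Mir30c-1, among them Mir20a over Mir19b-1 at 9.70 ± 0.53 and Mir99a over Mirlet7c-1 at 8.77 ± 0.27.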
